A study of Gallus gallus with 5 samples.

Results

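Genes of DNA end joining were followed in chicken DT40 cells labelled as lacking a linker histone variant. The 9 genes were LIG4, XRCC4, XRCC5, XRCC6, PRKDC, DCLRE1C, NHEJ1, TP53BP1 and PARP1. A probe set of the array was taken as theirs when the platform's probe table gave it that gene as its single symbol, which gave 18 probe sets for the 9 genes, among 38439 probe sets that are not array controls. LIG4 had 1 probe set, as had XRCC6 and TP53BP1, and the other genes had 2 or 3. Of the 18, 17 were bright enough to be tested, which covered all 9 genes.

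DT40 is a B cell line from a bursal lymphoma of the chicken, and it integrates targeted DNA by homologous recombination unusually often. Total RNA of 5 samples was read on 1 Affymetrix chicken array each. Of these, 2 came from wild-type DT40 cells (WT), 1 from cells whose label names a loss of linker histone H1L, and 2 from cells whose label names a loss of linker histone H1R. The sample descriptions write the deletions as L-/- and R-/-, and the design text gives a common culture medium and exponential growth. Whether a line was 1 clone, and whether replicates were separate cultures, is not stated in the sources used here, so each p-value weighs a difference against array-to-array spread alone, and that spread could be purely technical. By a code in the descriptions, replicate 1 of WT and of H1R belong to a first day. Replicate 2 of both and the H1L-labelled array belong to a second day.

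The arrays do not settle the labels. The probe set of HIST1H111R gave signals of 36.1 and 39.4 in wild-type cells, 42.2 on the H1L-labelled array and 28.9 and 7 under H1R loss. The last of these was below that array's background limit of 33.6. The difference in H1R did not pass (limma adjusted p = 0.569, or 0.29 with the day as block). The probe set of HIST1H111L gave 1320 and 2034.8 in wild-type cells, 2295.3 on the H1L-labelled array and 981.8 and 2372 under H1R loss, so it was not lower where H1L is said to be deleted. The names of these probe sets differ only in their last part, so whether each reads only its own gene is not known. Nor is it known whether they read the deleted parts, so every direction below rests on the labels. Of 10 B cell markers with a probe set, 9 were above background on all 5 arrays, among them EBF1 and BTK, and RAG2 was on none. Their summed signal was 11418.6 and 16808.4 in wild-type cells, 11906.9 on the H1L-labelled array and 10919.5 and 11676.1 under H1R loss. They did not share a direction, as PAX5 read 32.5 and 37.9, 43.8, and 38.8 and 46.5 in the same order. Of the 10, only 1 passed in H1R against WT. CD79B, a chain of the B cell receptor, fell in H1R, with 3263.8 and 3744.7 in wild-type cells, 2021.7 on the H1L-labelled array and 1216.1 and 1347.6 under H1R loss (log2 fold change -1.45, limma adjusted p = 0.0196). The summed signal of 7 T cell markers was 2500.3 and 4208 in wild-type cells, 1988 on the H1L-labelled array and 1303.6 and 769.6 under H1R loss. Nearly all of it was CD3D, which passed in H1R with the day as block (log2 fold change -1.73, limma adjusted p = 0.0634, or 0.0113 with the block). CD8A did not follow it, with 31.4 and 22.4, 64.8, and 48.4 and 26.9 in the same order. CD3E read 4.3 and 118.7, 1.5, and 2.9 and 1.6, so it was above background on 1 WT array alone. CD28 overlapped WT in H1R, and CD4, LCK and ZAP70 were at or below background on all arrays. Myeloid markers summed to 439.1 and 649.4 in wild-type cells, 338.2 on the H1L-labelled array and 355.4 and 217.3 under H1R loss. All arrays of deletion cells were thus lower, but most of each sum was CTSS, with 358.9 and 557.6, 281.8, and 278.5 and 135.8. CSF1R, C1QA and C1QB overlapped WT in H1R, and LYZ, near background, read lower there. On the H1L-labelled array CSF1R read 5.6, below background, against 32 and 26.8 in WT (limma adjusted p = 0.527). C1QA read 24.5 on that array against 27.4 and 25.2 in WT. C1QB, below background on that array, read 6.2 against 6.7 and 13.2, and LYZ lay between the WT values. Fibroblast markers summed to 111.5 and 112.1, 182.1, and 192.2 and 355 in the same order, so these sums were higher in deletion cells. Within these, COL1A2 read 6 and 26.5, 102.4, and 98.3 and 285.1 (limma adjusted p = 0.0597 in H1R, or 0.000335 with the day as block). COL1A1 went the other way, with 36.6 and 41.3, 16.5, and 20.5 and 20.4. COL3A1 lay between the WT values on every array of deletion cells, and DCN and LUM were at or below background on all arrays. Erythroid markers summed to between 15.1 and 48.2. The part of these markers in the results below was not tested.

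Nonhomologous end joining rejoins broken DNA without a template. The Ku heterodimer, made by XRCC5 and XRCC6, caps the ends and recruits the kinase DNA-PKcs, made by PRKDC, and with it Artemis, the nuclease made by DCLRE1C that opens hairpins and trims ends. DNA ligase IV, made by LIG4, seals the break in a complex with XRCC4, and XLF, made by NHEJ1, helps to align the ends. 53BP1, made by TP53BP1, protects ends from resection, and PARP1 senses breaks and is tied to the alternative, Ku-independent route. Lymphocytes need the pathway to join antigen receptor gene segments. In DT40 cells the immunoglobulin genes go on diversifying by gene conversion, which is a recombination process.

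LIG4, the ligase that completes the reaction, had the lowest log2 fold change of the 9 genes in both comparisons with WT. Its signal was 370.5 and 319.6 on the WT arrays, 61.8 on the H1L-labelled array, and 115.5 and 112.2 on the H1R arrays. All 3 arrays of deletion cells lay below both WT arrays, as they did for 11.2% of all tested probe sets, and every value was above that array's background limit, which ran from 18 to 33.6. The geometric mean of WT was 3.02 times that of H1R and 5.57 times the value on the H1L-labelled array. In these bulk samples, fewer cells that make a transcript and less transcript per cell cannot be told apart. CD79B, CD3D and the summed myeloid markers, mostly CTSS, were likewise lower on all 3 arrays of deletion cells than on both WT arrays. The summed B cell markers and the T cell marker CD8A were not, and PAX5 read higher on all 3. The part of these markers in the LIG4 values was not tested.

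On the log2 scale used for testing, log2(signal + 6), the log2 fold change of LIG4 was -1.55 ± 0.30 (SE) for H1R against WT. Adjusted over all 23053 tested probe sets it missed the threshold of 0.05 (limma adjusted p = 0.0673). The log2 fold change of LIG4 against WT on the H1L-labelled array was -2.37 ± 0.37 (limma adjusted p = 0.0822). The code in the descriptions was read as the day, with the H1L-labelled array on the second day. With this day as a block LIG4 fell in both comparisons, and these results rest on that reading. The limma adjusted p was then 0.00794 for H1R (log2 fold change -1.55 ± 0.24) and 0.0151 for the H1L-labelled array (-2.31 ± 0.32). Within the first day the log2 difference between H1R and WT was -1.63. Within the second day it was -1.46 for H1R and -2.26 for the H1L-labelled array. The 2 comparisons share the WT arrays, so they are not independent of each other.

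The call of LIG4 depended on the processing, and its direction did not in any alternative run. For H1R against WT, limma gave an adjusted p of 0.0494 after quantile normalization, 0.0466 after median scaling and 0.0496 with a pseudocount of 32. It gave 0.0825 with a pseudocount of 1, 0.138 with no filter on dim probe sets and 0.13 without the variance trend, and for the H1L-labelled array these gave 0.113, 0.216 and 0.222. For H1R it gave 0.0531 with the filter at the 60th percentile and 0.0605 with the WT and H1R arrays alone. Leaving out 1 array of WT or H1R leaves 1 array in that group, so only sizes are given and no call. For H1R the log2 fold change was -1.57 without H1R replicate 1 and -1.53 without H1R replicate 2. It was -1.44 without replicate 1 of WT and -1.65 without replicate 2 of WT. Across these settings the log2 fold change stayed between -1.65 and -1.37 for H1R, and across the arrays left out between -2.47 and -2.26 for the H1L-labelled array. Among all tested probe sets, 1.57% had a lower log2 fold change than LIG4 in H1R and 0.468% on the H1L-labelled array.

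By their order, the signals of LIG4 were highest in WT, lower in H1R and lowest on the H1L-labelled array. The last step was not resolved. The direct log2 fold change of the H1L-labelled array against H1R was -0.82 ± 0.37, with a 95% interval from -1.68 to 0.04 (limma adjusted p = 0.887). The median of all probe sets in that comparison was -0.146, which moved to -0.00438 after quantile normalization, and relative to the median LIG4 lay at -0.68.

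**Figure D1:**
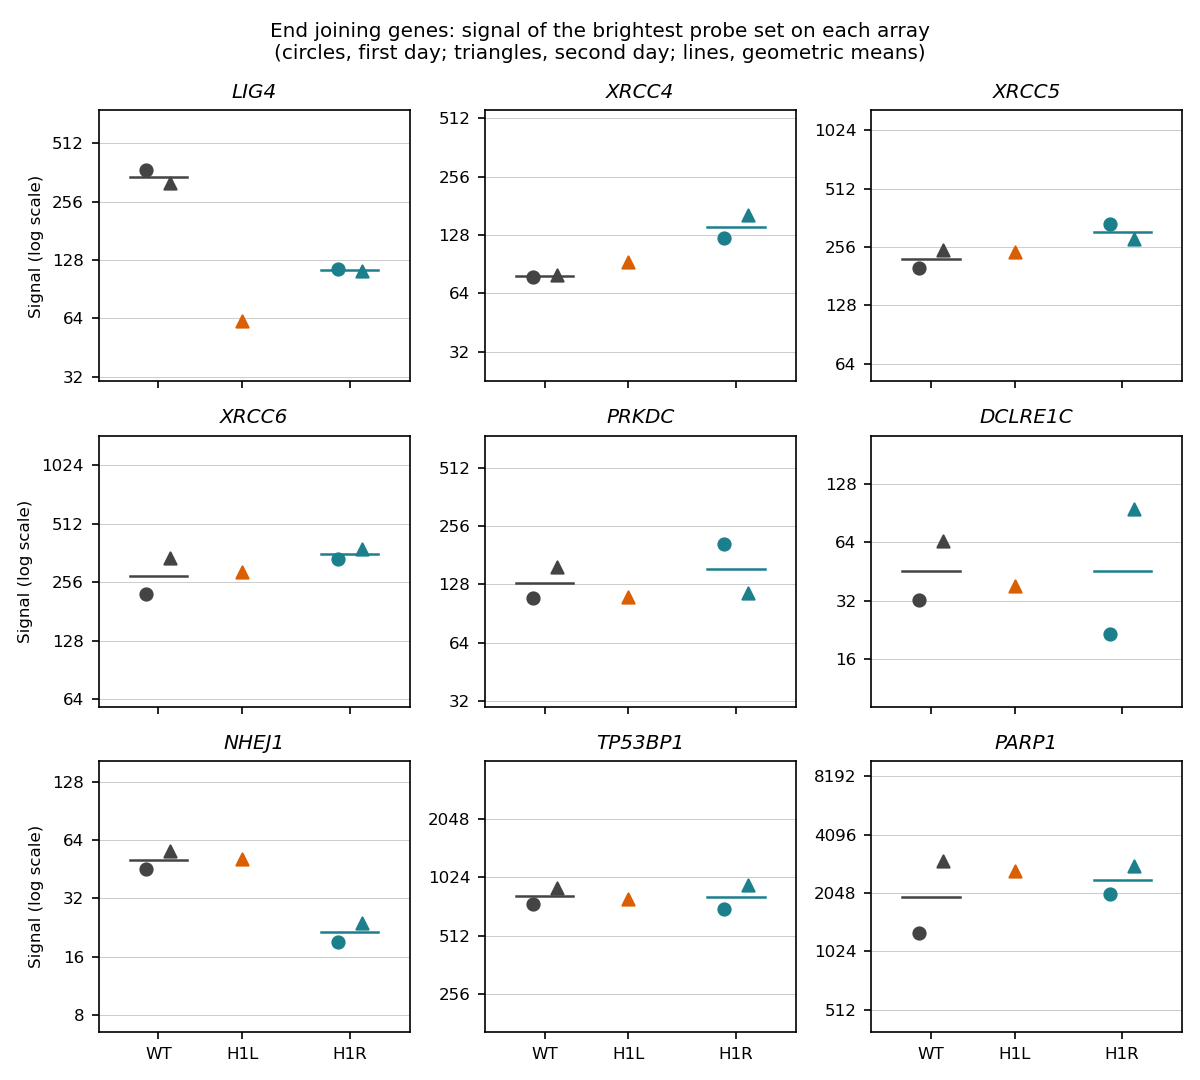
Signal of the brightest probe set of each of the 9 end joining genes on the 5 arrays, on a log axis that spans the same fold range in every panel. Circles are arrays of the first day, triangles of the second, and lines are geometric means of the WT and H1R replicates. LIG4 lies at 61.8 on the H1L-labelled array and at 115.5 and 112.2 in H1R, against 370.5 and 319.6 in WT, and NHEJ1 is low in H1R.

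XRCC4, the scaffold that holds ligase IV, read higher in H1R than in WT. Its brightest probe set gave 77.7 and 79.2 in wild-type cells, 93.3 on the H1L-labelled array and 123.1 and 162.6 under H1R loss. The H1R arrays lay above both WT arrays on each day, and the H1L-labelled array lay between the groups. The log2 fold change of H1R against WT was 0.80 ± 0.32 (limma adjusted p = 0.43), and that of the H1L-labelled array 0.23 ± 0.39 (adjusted p = 0.975). A second probe set gave 60.1 and 78 in wild-type cells, 58.8 on the H1L-labelled array and 79.5 and 102.1 under H1R loss. The third was dim, with 15.8 and 8.6 in wild-type cells, 7 on the H1L-labelled array and 19.8 and 40.4 under H1R loss, at least 1.13-fold higher in H1R. The first and the second probe set had H1R above WT without overlap, where 39.4% of all tested probe sets had no overlap in either direction. The third had this order too, but it was bright enough to be tested only through its H1R values, so it adds no support. None of the 3 passed, and the H1L-labelled array lay below both WT arrays in 2 of the 3.

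NHEJ1, whose product XLF works beside XRCC4 and ligase IV, also read low in H1R. Its brighter probe set gave 45.1 and 55.9 in wild-type cells, 50.9 on the H1L-labelled array and 19 and 24 under H1R loss. The groups did not overlap, and the second H1R value was below that array's background limit of 33.6. The log2 fold change of H1R against WT was -1.04 ± 0.35 (limma adjusted p = 0.327), and it was -1.03 on the first day and -1.04 on the second. With the day as block the limma adjusted p was 0.141. The H1L-labelled array lay between the WT arrays (log2 fold change 0.02 ± 0.43). Its log2 fold change against H1R was 1.05 ± 0.43, with a 95% interval from 0.06 to 2.05 and a limma adjusted p of 0.887, so that this difference between the labels did not pass. The other probe set did not separate the groups. Its signals were 25.7 and 12.8 in wild-type cells, 19.4 on the H1L-labelled array and 18.2 and 20.2 under H1R loss, above background on 1 of 5 arrays.

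The genes of the Ku heterodimer did not pass in either comparison with WT. XRCC5, which makes the larger subunit, gave 200.2 and 246.5 in wild-type cells, 240.9 on the H1L-labelled array and 335.7 and 281.6 under H1R loss in its brightest probe set. XRCC6, which makes the smaller subunit, gave 222.4 and 341.4 in wild-type cells, 290.8 on the H1L-labelled array and 338.4 and 381.7 under H1R loss. For both genes the H1L-labelled array lay between the WT arrays, and only for XRCC5 were both H1R arrays above them. The log2 fold change of H1R against WT was 0.46 ± 0.31 for XRCC5 (limma adjusted p = 0.723) and 0.38 ± 0.33 for XRCC6 (adjusted p = 0.802). The probe sets of XRCC5 disagreed in direction. A second one gave a log2 fold change of 0.39 ± 0.31 in H1R, and the dimmest, with 51.6 and 56.8 in WT and 34.1 and 51.6 in H1R, gave -0.32 ± 0.34. On the H1L-labelled array the 3 gave 0.11, -0.38 and 0.23, each with a standard error between 0.38 and 0.42.

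PRKDC, the kinase that Ku recruits, had no common direction over the days. Its 2 probe sets tracked each other. The brighter gave 108.5 and 156.7 in wild-type cells, 110.3 on the H1L-labelled array and 206.1 and 115.6 under H1R loss, and the dimmer gave 80.3 and 124.9, 97.1, and 150.5 and 98.1 in the same order. H1R was above WT on the first day and below it on the second, with log2 differences of 0.89 and -0.42 in the brighter probe set. Neither comparison passed (limma adjusted p = 0.917 for H1R and 0.978 for the H1L-labelled array).

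DCLRE1C, the nuclease Artemis, differed widely between replicates. Its brightest probe set was above the background limit on all 5 arrays and read 32.2 and 64.7 in wild-type cells, 38.2 on the H1L-labelled array and 21.6 and 95.3 under H1R loss, and the 2 H1R values lay on either side of WT. The log2 fold change of H1R against WT was 0.02 ± 0.61, with a 95% interval from -1.38 to 1.43, so a change of more than 1 log2 unit in either direction could not be told from none. A second probe set read 23.1 and 17.2 in wild-type cells, 7.4 on the H1L-labelled array and 25 and 4.5 under H1R loss. The third was the 1 member probe set left out of the test, with 13.7 and 24.7 in wild-type cells, 1.5 on the H1L-labelled array and 9.3 and 4.1 under H1R loss. The second and the third probe set were each above the background limit on 1 of 5 arrays.

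TP53BP1, the shield of broken ends, had the log2 fold change nearest to 0 in H1R. It read 744.9 and 904.8 in wild-type cells, 791.4 on the H1L-labelled array and 703.1 and 933.8 under H1R loss, and the WT and H1R ranges overlapped fully. The log2 fold changes were -0.02 ± 0.28 in H1R, with a 95% interval from -0.66 to 0.63, and -0.05 ± 0.34 on the H1L-labelled array, with one from -0.84 to 0.74.

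PARP1, the break sensor of the alternative route, varied most between the WT arrays. Its brighter probe set gave 1279.4 and 2986.4 in wild-type cells, 2653.1 on the H1L-labelled array and 2015.7 and 2814.5 under H1R loss, and the other gave 1152.7 and 1990.4, 2048.1, and 1695.3 and 1917.8. Replicate 1 of WT was the low array in both probe sets, with a log2 difference of 1.22 between the WT arrays in the brighter one. The second-day arrays differed little, with log2 differences from WT of -0.09 for H1R and -0.17 for the H1L-labelled array. The log2 fold changes over all arrays were 0.28 ± 0.38 for H1R and 0.44 ± 0.47 for the H1L-labelled array, and neither passed (limma adjusted p = 0.894 and 0.957). Actin control signal at the 3' end over that at the 5' end, a sign of RNA quality, was 2.81 and 2.02 in wild-type cells, 2.01 on the H1L-labelled array and 3.87 and 2.25 under H1R loss, so this ratio was higher on both first-day arrays. On each day this ratio was also higher in H1R than in WT. Its part in the values of PARP1, PRKDC and the other members, LIG4 included, was not tested.

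**Figure D2:**
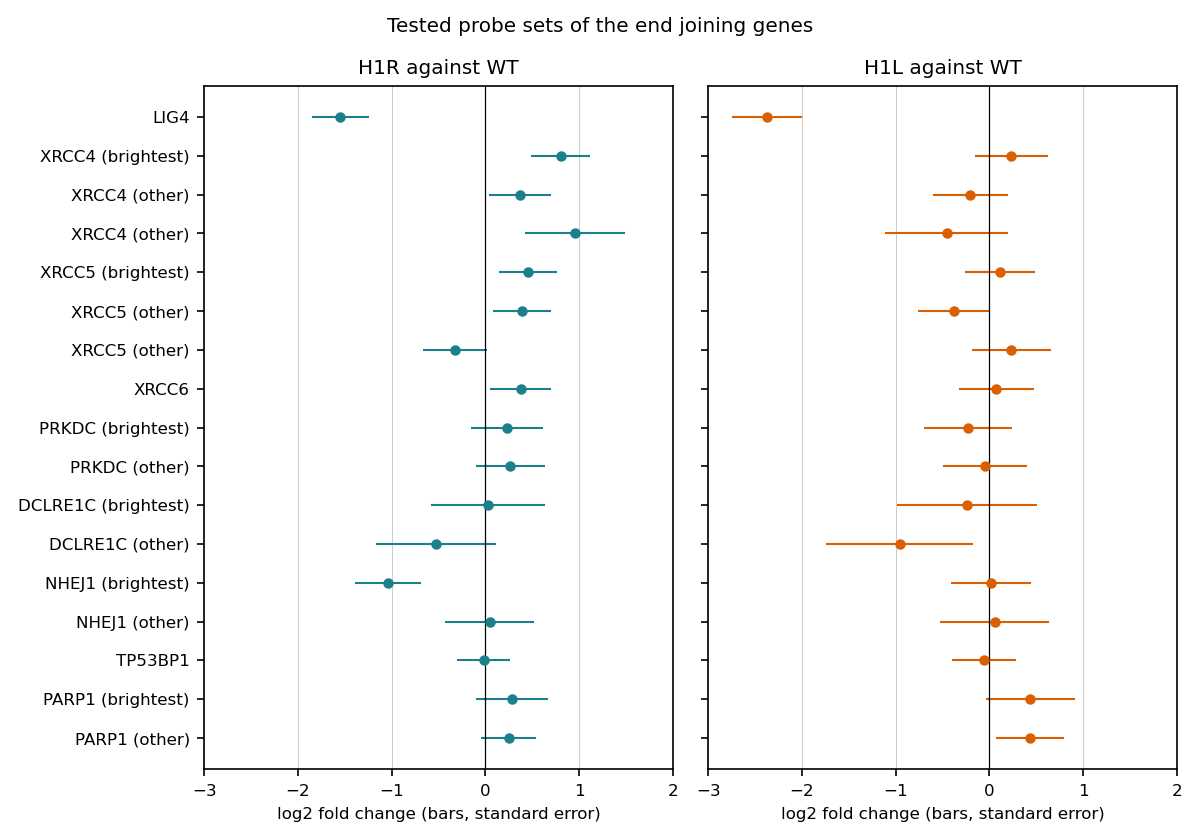
Log2 fold change against WT, with its standard error, of the 17 tested probe sets of the end joining genes, for H1R on the left and the H1L-labelled array on the right. LIG4 lies at -1.55 and -2.37, and NHEJ1 in its brighter probe set at -1.04 and 0.02, while the other members lie between -0.96 and 0.96.

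Counted over the members, 0 of 17 tested probe sets passed in H1R against WT (limma, Benjamini-Hochberg), where 1.17% of all tested probe sets did, and 3 had an unadjusted p under 0.05, where 10.2% of all did. In the comparison of the H1L-labelled array with WT, 0 of 17 passed against 0.2% of all, and 1 had an unadjusted p under 0.05 against 6.89%. With the day as block, LIG4 was the 1 of 17 in each comparison, against 3.7% and 0.508% of all. Between the H1L-labelled array and H1R, 0 of 17 passed against 0.00434% of all, and 1, NHEJ1, had an unadjusted p under 0.05 against 5.54%. With the block this count also was 0, against 0.134%. H1R and WT did not overlap in 7 of 17, which is close to the 39.4% of all tested probe sets. Taking each of the 9 genes in its brightest tested probe set, the median in log2 units was 0.235 in H1R, where all 9962 named genes had 0.118. It was 0.0168 on the H1L-labelled array, where all had -0.0469. LIG4 was the lowest of the 9 in both comparisons with WT.

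LIG4 has a near neighbour on chromosome 1, TNFSF13B, that also read low. In the RefSeq annotation of the GRCg7b assembly, ABHD13, a hydrolase gene, comes directly before LIG4, and TNFSF13B, which encodes the B cell survival cytokine BAFF, comes before ABHD13. Of the 5 annotated genes on each side of LIG4, 3 had probe sets, the last being ARGLU1. The brightest probe set of TNFSF13B read 1014.7 and 1775.5 in wild-type cells, 122.5 on the H1L-labelled array and 20.4 and 16.1 under H1R loss. It fell in both comparisons, by a log2 fold change of -5.80 in H1R (limma adjusted p = 9e-04) and -3.39 on the H1L-labelled array (adjusted p = 0.0381). All 3 probe sets of TNFSF13B passed in H1R and 2 of the 3 on the H1L-labelled array, where the other had a limma adjusted p of 0.137, or 0.00136 with the day as block. In the brightest probe set the second H1R value lay below that array's background limit of 33.6 and the first just above the limit of 18, so the size of its fold in H1R is uncertain. The other 2 probe sets were at or below background on both H1R arrays, at least 15.7-fold and 25-fold lower. TNFSF13B read lower in H1R than on the H1L-labelled array and LIG4 the other way round, but neither difference passed (limma adjusted p = 0.41 and 0.887, or 0.106 and 0.46 with the day as block).

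ABHD13, which lies between them, did not show differences of that size. Its brightest probe set read 646 and 972.6 in wild-type cells, 452.7 on the H1L-labelled array and 668.4 and 582.9 under H1R loss, so H1R overlapped WT. The log2 fold change was -0.34 ± 0.30 in H1R (limma adjusted p = 0.806) and -0.80 ± 0.37 on the H1L-labelled array (adjusted p = 0.762). A second probe set gave -0.26 and -0.88, and the other 2 were at or below background on every array. ARGLU1, a splicing factor gene on the other side of LIG4, read 2871 and 3163.2 in wild-type cells, 2502.2 on the H1L-labelled array and 3073.8 and 3096.9 under H1R loss, and none of its 5 probe sets passed. Since 7 of the 10 annotated neighbours had no probe set, the nearest 8 genes with a tested probe set on each side were added after the data were seen. Beyond TNFSF13B and ABHD13 the log2 fold changes of these genes lay between -0.03 and 1.62 in H1R and between -0.39 and 0.71 on the H1L-labelled array. RAB20, a small GTPase gene, was the highest in H1R, with 36.7 and 36.5 in WT and 111.9 and 139.8 in H1R (log2 fold change 1.62, limma adjusted p = 0.0655, or 0.0145 with the day as block). Of the 80 annotated genes within 5 on each side of the 8 other members, 42 had a probe set. These gave 62 tested probe sets, with 0 near PRKDC. Of the 62, 0 passed in H1R against WT and 0 on the H1L-labelled array against WT, beside 1.17% and 0.2% of all.

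**Figure D3:**
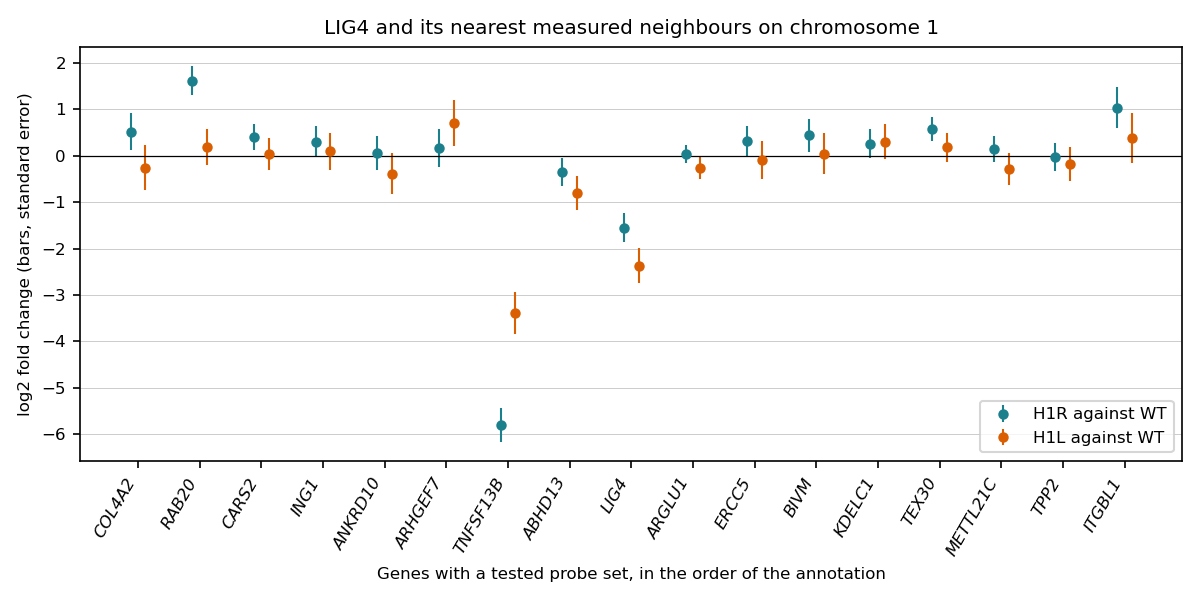
Log2 fold change against WT, with its standard error, of LIG4 and the 8 nearest genes with a tested probe set on each side, in the order of the annotation and not to distance. TNFSF13B lies at -5.80 in H1R and -3.39 on the H1L-labelled array and LIG4 at -1.55 and -2.37, with ABHD13 between them at -0.34 and -0.80.

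Other genes of the pathway were read from 4 lists, and none of their tested probe sets passed with limma, beside 1.17% of all in H1R against WT, 0.2% on the H1L-labelled array against WT and 0.00434% between these. Among 7 tested genes, of 13 listed, of classical end joining, 6 were above 0 and 1 below 0 in H1R. Their median of 0.334 in log2 units, beside 0.118 for all genes, is the value of LIG3. This ligase was placed on the list but acts in the alternative route. POLL, the gap-filling DNA polymerase lambda, was the low member: it read 234.8 and 368.8 in wild-type cells, 266.2 on the H1L-labelled array and 140.2 and 106.7 under H1R loss, a log2 fold change of -1.23 ± 0.35 (limma adjusted p = 0.225, or 0.0515 with the day as block). TDP2, which removes topoisomerase II from break ends, was the high member, with 815.2 and 952.3 in wild-type cells, 1227.2 on the H1L-labelled array and 1607.7 and 1535.4 under H1R loss. These signals are from the brightest of the 3 probe sets of TDP2. Its log2 fold change in H1R was 0.83 ± 0.24 (limma adjusted p = 0.234). With the day as block this probe set rose (adjusted p = 0.0407), in a fit where 3.7% of all tested probe sets passed. TDP2 was the 1 gene of the 4 lists to pass there. No other of the 10 tested probe sets of its list passed, so the rise of TDP2 rests on 1 probe set. APTX, which repairs aborted ligations, was the second highest in H1R at 0.52 ± 0.32, and APLF, a Ku-binding scaffold, the second lowest at 0.07 ± 0.34. The 7 genes on the H1L-labelled array had a median of 0.113, between POLL at -0.14 and TDP2 at 0.48. LIG3 is named after its values were seen. It read 1327 and 1863.1 in wild-type cells, 1702.6 on the H1L-labelled array and 1830.7 and 2150.6 under H1R loss, and its log2 fold change in H1R was 0.33 ± 0.25 (limma adjusted p = 0.763).

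The 14 tested genes, of 15 listed, of alternative end joining and end resection were 5 above and 9 below 0 in H1R (median log2 fold change -0.184), and 6 above and 8 below on the H1L-labelled array (median -0.0731). MRE11, the nuclease of the complex that starts resection, was highest in H1R at 0.79 ± 0.31, with DNA2, another resection nuclease, at 0.45 ± 0.27. PARP3 was lowest at -0.91 ± 0.59, with 29.6 and 41.9 in WT and 6 and 34 in H1R. Its groups overlapped, and the first H1R value was below background. Next came POLQ, the polymerase of the alternative route, which was at or below background on both H1R arrays and has no fold. On the H1L-labelled array, RAD50, the partner of MRE11, was lowest at -1.09 ± 0.45 and HMCES, a shield of abasic sites, next at -0.81 ± 0.36, with MRE11 at 0.43 ± 0.37 and EXO1, a resection exonuclease, at 0.36 ± 0.31 highest.

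Of 12 tested genes, from 20 listed, around 53BP1 and break signalling, 9 were above 0 in H1R (median 0.188) and 6 on the H1L-labelled array (median -0.0134). RNF168, the ubiquitin ligase that brings 53BP1 to chromatin, was highest in H1R at 0.74 ± 0.33, with 43.7 and 32.4 in WT and 64 and 70.3 in H1R, followed by TIPRL at 0.57 ± 0.30. MAD2L2, a subunit of shieldin, was lowest at -0.44 ± 0.30, followed by KMT5B, a histone H4 methyltransferase, at -0.08 ± 0.40. On the H1L-labelled array, RNF8, the ligase upstream of RNF168, at 0.68 ± 0.42 and USP28 at 0.43 ± 0.35 were highest. KMT5B and HELB, a helicase at or below background in both groups, were lowest. KMT5B read 25 and 26.3 in WT and 17.8 on the H1L-labelled array. Its values on replicate 1 of WT and on the H1L-labelled array were below the background limits of 29.2 and 23, so no fold is given. The 5 tested genes, of 9 listed, of V(D)J recombination and switching had medians of -0.0398 in H1R and -0.0444 on the H1L-labelled array. MSH6, a mismatch recognition gene, was highest in both, at 0.35 ± 0.42 and 0.84 ± 0.52, and UNG, the uracil glycosylase, was next at 0.30 ± 0.32 and 0.27 ± 0.39. For both genes replicate 1 of WT was the low array, with log2 differences between the WT arrays of 1.31 and 0.99. Within the second day the log2 differences from WT were -0.24 in H1R and 0.19 on the H1L-labelled array for MSH6. They were -0.20 and -0.23 for UNG. HMGB1 at -0.17 ± 0.20 was the lowest in H1R, followed by RAG2, which was at or below background on every array. HMGB2 at -0.43 ± 0.29 and HMGB1 at -0.32 ± 0.25 were lowest on the H1L-labelled array.

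**Figure D4:**
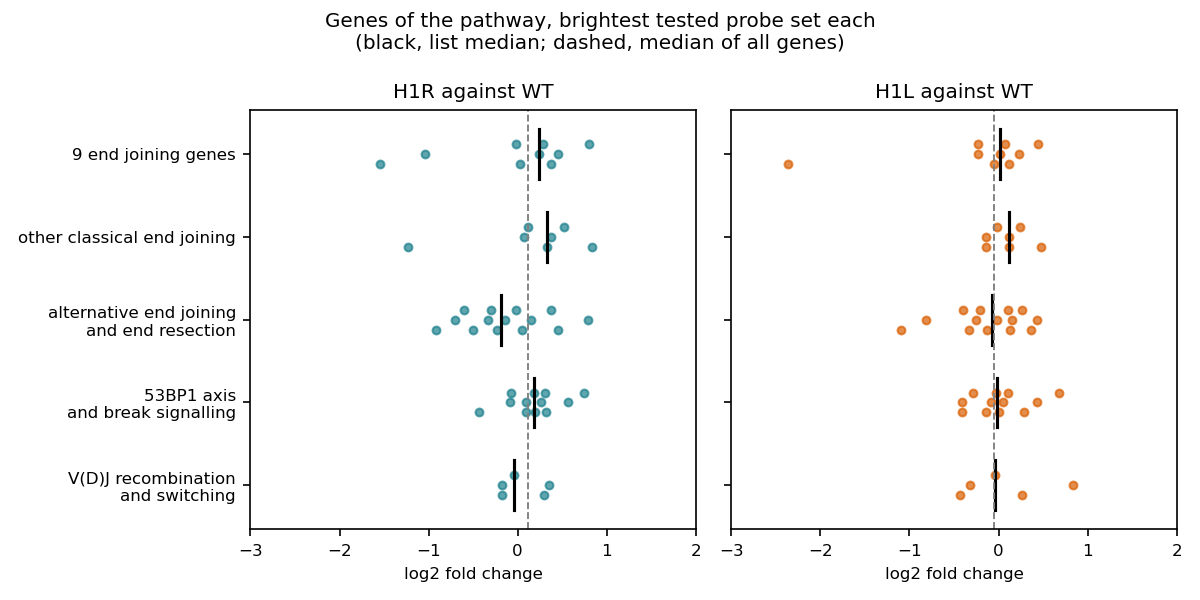
Log2 fold change against WT of each gene in its brightest tested probe set, for the 9 end joining genes and 4 further lists. Short black lines are list medians and the dashed line is the median of all named genes, at 0.118 for H1R and -0.0469 for the H1L-labelled array.

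The genes whose profile lay nearest to that of LIG4 over the 5 arrays were sought among 9704 genes in their brightest tested probe set, which leaves out LIG4 and symbols that start with LOC. The measure was the Euclidean distance between log2 values centred on the WT mean. The nearest was CSRNP1, a nuclear protein gene induced by AXIN1, at a distance of 0.291, with 715.7 and 484.3 in wild-type cells, 115.8 on the H1L-labelled array and 215.6 and 183.5 under H1R loss. A second probe set of CSRNP1 gave 378.5 and 430 in wild-type cells, 123.4 on the H1L-labelled array and 117.9 and 198.8 under H1R loss. Its log2 fold changes in the brightest probe set were -1.54 in H1R and -2.29 on the H1L-labelled array. Since these genes were chosen for their values on the same arrays, their fold changes are a description and no p-value is given.

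FOXP1, a transcription factor of B cell development, was also among the 5, at a distance of 0.589. It read 367.5 and 278.3 in wild-type cells, 58.5 on the H1L-labelled array and 70.1 and 108.1 under H1R loss, with log2 fold changes of -1.81 and -2.34. A second probe set of FOXP1 read 114.2 and 95.4 in wild-type cells, 37.9 on the H1L-labelled array and 32.9 and 50.7 under H1R loss. It gave log2 fold changes of -1.23 and -1.33. The other 2 probe sets of FOXP1 were at or below background on all 5 arrays. SSX2IP, a centrosome and adhesion protein gene, SDR42E2 and ABCC13 completed the set, at distances of 0.564, 0.588 and 0.594. SSX2IP and ABCC13 were at or below background on all 3 arrays of deletion cells, so their folds are bounds, at least 1.31-fold and 1.51-fold lower in H1R. SDR42E2 read 89.8 and 51.5 in wild-type cells, 13.3 on the H1L-labelled array and 18.6 and 16.6 under H1R loss. Its other probe set read 49 and 21.3, 20.7, and 1.2 and 8.6 in the same order, and a second probe set of ABCC13 read 48.5 and 27, 9.5, and 3.1 and 3.2. In both of these all arrays of deletion cells were at or below background, so the order between H1L and H1R is not resolved. The other 2 probe sets of SSX2IP were at or below background on all 5 arrays. With so few arrays many genes can lie close to a given profile, so the distances are a description.

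**Figure D5:**
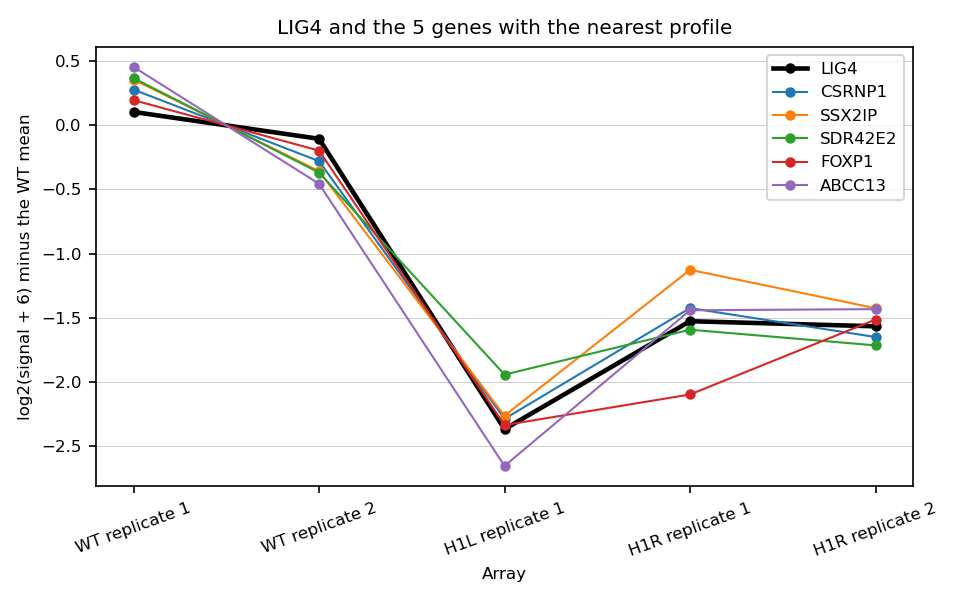
Log2(signal + 6) minus the WT mean on each of the 5 arrays for LIG4, in black, and the 5 named genes at the smallest Euclidean distance from it. In the probe sets drawn, LIG4, at -2.37, CSRNP1 and FOXP1 are lowest on the H1L-labelled array. In a second probe set of CSRNP1 and of FOXP1, an H1R array read lower than that array. SSX2IP, SDR42E2 and ABCC13 were at or below background on the H1L-labelled array, so their order against H1R is not resolved.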

How the data were processed

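The deposited value of a probe set is a linear signal intensity. Per the submitters' processing notes, the authors used GCOS to obtain it. The GCOS version, any target for scaling and detection calls are not given in the sources used here. No further scaling was applied. Tests ran on log2(signal + 6), the added 6 being the signals' 25th percentile. The 96 control probe sets were left out. Probe sets with a mean signal above 13.4, the 40th percentile, were tested, 23053 of 38439.

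The 3 groups were modelled together over the 5 arrays, using lmFit and trended eBayes of limma 3.58.1 under R 4.3.3. Residual degrees of freedom were 2 and prior ones 6.04. The p-values were adjusted by Benjamini-Hochberg over all tested probe sets within each of the 3 comparisons, with 0.05 as threshold. For H1L, a single array, the spread is taken from the other groups. The script was tested on simulated data. Errors after ± are standard errors.

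Same-day WT and H1R arrays deviated from their group means with a correlation of 0.192, and a code in the descriptions was read as the shared day. A fit with the day as block (1 residual and 8.32 prior degrees of freedom) therefore stands beside the other where it changed a call.

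The background limit of an array is the highest signal among 23 control probe sets with no chicken target. A fold is given as a bound when no array of a group exceeded that limit. A gene was read in its brightest probe set. All member probe sets were named, with the pathway genes at each end of their list, the neighbours of LIG4 and the 5 genes most like it. Members and lists were chosen with earlier results of these data known. Gene order came from RefSeq genes of GRCg7b. The number of arrays limits the precision.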

Additional observations from a re-analysis of the deposited data

How the results depend on the processing

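LIG4 was below WT in H1R and on the H1L-labelled array under every alternative run. Its log2 fold change in H1R was -1.64 after quantile normalization, -1.60 after median scaling and -1.37 with a pseudocount of 32, and each of these made it the 1 member past the threshold. Other settings moved it away, with limma adjusted p of 0.0825 with a pseudocount of 1, 0.138 with no filter and 0.13 without the trend in H1R, and of 0.113, 0.216 and 0.222 on the H1L-labelled array. With the replicate block by day it was -1.55 in H1R and -2.31 on the H1L-labelled array, and LIG4 was again the 1 member to pass in each. The block changed no other member's call. With 1 array left out, LIG4 ranged from -1.65 to -1.44 in H1R and from -2.47 to -2.26 on the H1L-labelled array.

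The number of probe sets past the threshold in H1R, 269, was 103 with no filter, 145 without the variance trend, 854 with the replicate block, and 81 to 328 with 1 array left out. On the H1L-labelled array against WT, 46 became 27 with a pseudocount of 1, 4 with no filter, 0 without the trend, 117 with the block and 2 to 126 with 1 array left out. Between the H1L-labelled array and H1R, 1 became 2 after quantile normalization and with a pseudocount of 32, 0 without the trend, 31 with the block and 0 to 32 with 1 array left out. The cause was not tested.

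Some members changed sign, none of them past the threshold. In H1R against WT, the brightest probe set of DCLRE1C went to -0.034 (quantile), -0.029 (median scaling), -0.0016 (pseudocount of 1) and -0.50 (mean of probe sets), and the dimmer one of NHEJ1 to -0.016 and -0.00099 under both scalings. With 1 array left out, PRKDC ranged from -0.17 to 0.64 and from -0.036 to 0.56, DCLRE1C from -0.91 to 0.96 and from -1.31 to 0.25, the dimmer NHEJ1 from -0.33 to 0.42, TP53BP1 from -0.22 to 0.18, and PARP1 from -0.33 to 0.89 and from -0.14 to 0.64. On the H1L-labelled array against WT, XRCC5 went to -0.011 and XRCC4 to -0.14 as means of probe sets, XRCC6 and NHEJ1 both to -0.12 with the replicate block, the dimmer PRKDC to 0.018 and 0.025 and TP53BP1 to 0.00054 and 0.020 under both scalings. With 1 array left out, XRCC5 ranged from -0.032 to 0.26, XRCC6 from -0.23 to 0.38, PRKDC from -0.48 to 0.023 and from -0.34 to 0.26, DCLRE1C from -0.68 to 0.21, NHEJ1 from -0.12 to 0.16 and from -0.32 to 0.43, TP53BP1 from -0.19 to 0.087, and PARP1 from -0.17 to 1.05. Between the H1L-labelled array and H1R, the block gave 0.043 for the second DCLRE1C probe set and -0.27 and -0.057 for PARP1, and the scalings gave 0.19 and 0.095 for TP53BP1. There, with 1 array left out, DCLRE1C ranged from -1.20 to 0.68 and from -1.21 to 0.35, the dimmer NHEJ1 from -0.045 to 0.070, TP53BP1 from -0.24 to 0.17 and PARP1 from -0.085 to 0.40. Probe sets near the background limit, as the second of DCLRE1C and the dimmer of NHEJ1, bound what these arrays resolve. Those of PARP1, PRKDC, TP53BP1 and XRCC6 were above the limit on all 5 arrays and changed sign too. The part of background in these changes was not tested.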
